A study of Bos taurus with 8 samples.

Results

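*CREB5*, its nearest relatives *ATF2* and *ATF7*, the related factors *CREB1*, *CREM* and *ATF1*, and the cofactors *CRTC1*, *CRTC2*, *CRTC3* and *CREBBP* were followed in bovine chondrocytes of the superficial zone (SZCs) and the deep zone (DZCs) of articular cartilage. These genes were taken by name from the deposited count table, in which all 10 were found among 24596 genes, and all 10 passed the filter on low counts that left 12857 genes for testing. The cells were wild type chondrocytes from the knees of calves 1 to 2 weeks of age, kept for 3 days in DMEM/F12 medium with 10% serum before extraction and with no treatment in the labels. RNA was sequenced in 2 libraries per zone, with totals between 19918970 and 21890549 counts. The study calls the 2 libraries of a zone biological duplicates, and neither its methods nor the labels say whether they came from separate calves, so the p-values measure the spread between these samples. The study cut a surface slice and a deep slice from each drilled core of cartilage and left out the tissue between them, and the cells were studied after culture, not in the tissue.

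CREB and ATF proteins are transcription factors with a basic leucine zipper (bZIP), through which they pair with each other or with JUN and bind the cAMP response element. ATF2, ATF7 and CREB5 share an amino-terminal activation domain in which p38 and JUN N-terminal kinases phosphorylate threonines. CREB1, CREM and ATF1 form a separate group that is phosphorylated by protein kinase A and then recruits the acetyltransferase CBP, the product of *CREBBP*. The CRTC proteins are coactivators that enter the nucleus when calcineurin removes the phosphates placed on them by salt-inducible kinases. In joint cartilage, *CREB5* has been linked to *PRG4*, the gene of the surface lubricant lubricin.

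The label of the cells was compared with marker genes. *PRG4*, *VIT*, *EPHA3* and *THBS4*, markers of the superficial zone, were called higher in SZCs (4 of 4), against 2.23% of all genes tested. All of them had already been listed by the study as higher in SZCs in these same libraries. That outcome was thus known in advance, and the count of calls is not an independent test of the label. *PRG4* itself was at 3166 and 2024 CPM in SZCs and at 15.3 and 61.5 CPM in DZCs, with a log2 fold change of 6.08 (SE 0.70, edgeR FDR 2.85e-09). The summed level of the 4 genes was 4713 and 3500 CPM in SZCs against 76.6 and 159.8 CPM in DZCs. CPM are counts scaled by library total and by the trimmed mean of M values (TMM). The chondrocyte genes *ACAN*, *COL2A1*, *SOX9*, *COL9A1*, *MATN3* and *COMP* were present in all 4 libraries, with a summed level of 103600 and 103100 CPM in SZCs and 441700 and 159400 CPM in DZCs. Their median log2 fold change was -1.22, against -0.04 over all genes tested, and 1 of the 6, *MATN3*, was called higher in DZCs (log2 fold change -2.04, edgeR FDR 0.00212). The summed level of 6 fibroblast or synovial genes was 16530 and 24710 CPM in SZCs and 4289 and 13650 CPM in DZCs, and 0 of the 6 passed the test between zones (edgeR's exact test). Their largest contributions came from the collagen genes *COL1A1*, *COL1A2* and *COL3A1*, while *PDPN* had the opposite order, at 491.6 and 452.6 CPM in SZCs and 1103 and 762.4 CPM in DZCs. Hypertrophic or bone genes summed to 2.5 and 1.68 CPM in SZCs and to 12.3 and 71.3 CPM in DZCs. The higher sum in DZC replicate 2 came from *MMP13*, *ALPL*, *IBSP*, *COL10A1* and *SP7*, which had 140 to 468 counts there and at most 1 count in DZC replicate 1, while *IHH* was the more abundant in DZC replicate 1 (194 against 48). Of these 7 genes 3 were tested, and 1, *IHH*, was called higher in DZCs (log2 fold change -4.12, edgeR FDR 0.016), against 0.700% of all genes tested. Endothelial genes summed to at most 9.18 CPM and blood or immune genes to at most 11.1 CPM in any library, with *HBB* at 0 counts throughout. The part of these other cell types in the results on *CREB5* was not tested. In bulk RNA, fewer cells of a type and less RNA per cell cannot be told apart.

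*CREB5* (ENSBTAG00000018909 in the count table) was the only member that differed between the zones in the test. SZC replicates 1 and 2 held 1035 and 753 of its reads, and DZC replicates 1 and 2 held 20 and 44. As a level this was 47.0 and 32.4 CPM for SZCs, and 1.24 and 1.97 CPM for DZCs. The means were 39.7 ± 10.3 CPM (SD, n = 2) and 1.61 ± 0.515 CPM (SD, n = 2). Both SZC libraries lay far above both DZC libraries, and *CREB5* reads were present in every library, the lowest count of 20 being above the limit of 3 counts (0.129 to 0.187 CPM) that a count of 0 would allow. The log2 fold change of SZCs over DZCs was 4.61 (SE 0.46, 95% interval 3.71 to 5.51, FDR 3.78e-16 by edgeR's exact test with Benjamini–Hochberg adjustment over all genes tested). By p-value 3 genes lay ahead of it, and 37 of the called genes had a larger log2 fold change. In what follows an edgeR FDR is from this test. With an FDR threshold of 0.05, 1 of the 10 members was called, against 2.93% of all genes tested. Higher in SZCs were 2.23% of the genes tested (287 genes), and higher in DZCs 0.700% (90 genes). Scaling by library totals alone turned that split into 288 and 44 genes, and *CREB5* was then called at 4.86.

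The call of *CREB5* held with each library left out in turn, at log2 fold changes from 4.32 to 5.01 and FDR values of at most 8.42e-05 (exact test of edgeR, where the lone library of a zone was assumed to vary like the other zone). Background shares in those fits were 0.529% without SZC replicate 1, 1.26% without SZC replicate 2, 6.68% without DZC replicate 1 and 21.5% without DZC replicate 2. The quasi-likelihood test of edgeR gave the same log2 fold change with an FDR of 0.0775, and it called 0 genes in all, with 1126 genes at an unadjusted p under 0.05.

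**Figure D1:**
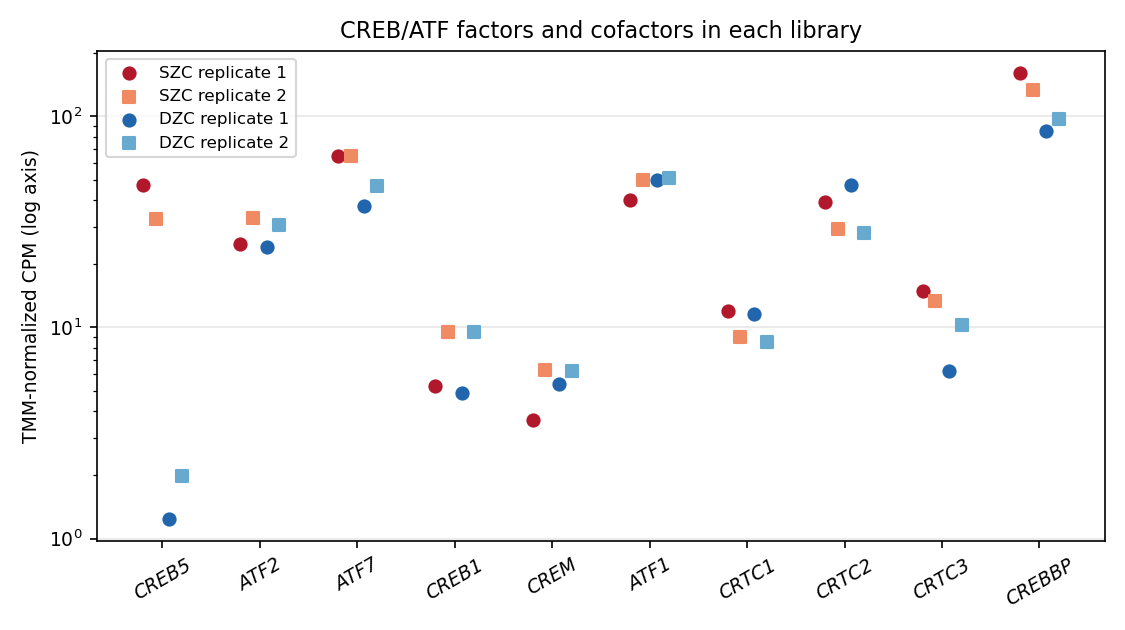
Level of each factor in the 4 libraries, as TMM-normalized CPM on a log axis; circles are replicate 1 and squares replicate 2, red for SZCs and blue for DZCs. *CREB5* fell from 47.0 and 32.4 CPM in SZCs to 1.24 and 1.97 CPM in DZCs, while the zone means of each other gene differed by less than 2-fold; levels of different genes are not comparable, since counts were not divided by transcript length.

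*ATF2*, the best known partner of JUN among the relatives of *CREB5*, had 545 and 761 counts in SZCs, with 388 and 684 in DZCs. Its level was 24.8 and 32.8 CPM in SZCs and 24.1 and 30.7 CPM in DZCs, so that the zones overlapped. The log2 fold change was 0.07, with a 95% interval from -0.66 to 0.80. Under TMM scaling that interval leaves out a difference of 2-fold in either direction, but it does not cover error in the scaling. With libraries scaled by their totals alone the log2 fold change of *ATF2* was 0.34. *ATF7* had 1428 and 1499 counts in SZCs, with 607 and 1044 in DZCs, or 64.9 and 64.6 CPM against 37.8 and 46.8 CPM. Both SZC libraries were above both DZC libraries, but the log2 fold change of 0.61 (95% interval -0.05 to 1.28) did not pass the test (edgeR FDR 0.655). Without DZC replicate 2, *ATF7* had a log2 fold change of 0.80 and an FDR of 0.038 by the same edgeR test. That is a fit in which 21.5% of all genes were called. Zones that do not overlap were frequent in general. Both SZC libraries were above both DZC libraries in 21.0% of the genes tested, and both DZC libraries above both SZC libraries in 20.5%. Of the members, 4 showed the former pattern (*CREB5*, *ATF7*, *CRTC3* and *CREBBP*) and 0 the latter.

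The reads of these 3 relatives were shared out differently in the 2 zones. *CREB5* made up 34.4% of the reads of *CREB5*, *ATF2* and *ATF7* in SZC replicate 1 (95% Wilson interval 32.7% to 36.1%) and 25.0% in SZC replicate 2 (23.5% to 26.6%). In DZC replicate 1 its share was 1.97% (1.28% to 3.02%), and in DZC replicate 2 it was 2.48% (1.85% to 3.32%). These intervals reflect counting error only, and are too narrow where amplified reads are not independent molecules. They leave out the spread between libraries, as the intervals of the SZC libraries do not overlap. The shares are of reads and not of transcripts. The summed level of the 3 genes was 136.7 and 129.8 CPM in SZCs and 63.1 and 79.4 CPM in DZCs. For *ATF2* and *ATF7* without *CREB5*, the sums were 89.6 and 97.4 CPM in SZCs and 61.9 and 77.5 CPM in DZCs. The zone difference of the sum was thus 1.88-fold with *CREB5* and 1.35-fold without it, and both had p = 0.333 by exact permutation (two-sided), which is as low as 2 libraries against 2 can go.

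A ratio within a library does not depend on how libraries are scaled to each other. The log2 ratio of *CREB5* to *ATF2* counts was 0.92 and -0.015 for SZCs, and -4.24 and -3.94 for DZCs. The mean was 0.45 ± 0.67 (SD, n = 2) in SZCs and -4.09 ± 0.21 (SD, n = 2) in DZCs, a difference of 4.55. Against *ATF7* the ratio was -0.46 and -0.99 in SZCs and -4.89 and -4.55 in DZCs, a difference of 3.99. Against *CREB1* it was 3.15 and 1.77 in SZCs and -1.96 and -2.25 in DZCs, a difference of 4.56. For all 9 other members the SZC ratios lay above the DZC ratios without overlap, with differences from 3.80 (*CRTC3*) to 4.89 (*CREM*), each again at the lowest p of exact permutation, 0.333. These 9 ratios share the *CREB5* counts and are not independent of each other or of its zone difference. With each library left out in turn the differences stayed between 4.08 and 5.02 for *ATF2*, between 3.73 and 4.26 for *ATF7* and between 3.87 and 5.25 for *CREB1*.

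**Figure D2:**
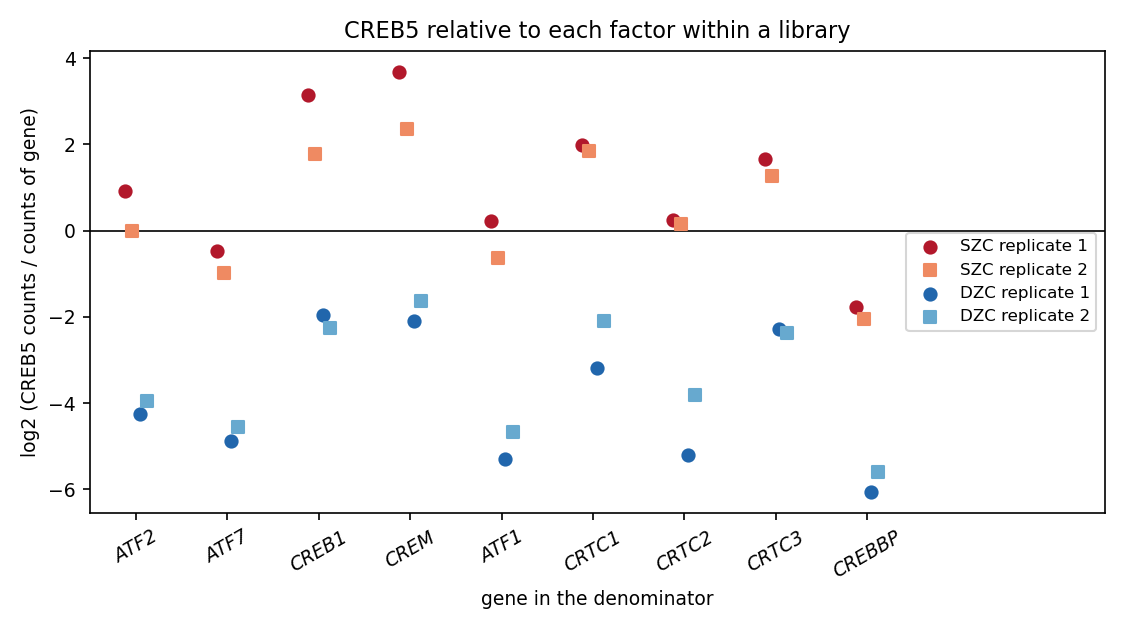
Log2 ratio of *CREB5* counts to the counts of each other factor within a library, with the gene of the denominator on the horizontal axis; circles are replicate 1 and squares replicate 2, red for SZCs and blue for DZCs. For every gene the SZC points lie above the DZC points, by 3.80 to 4.89 on average; the height of a gene's points also depends on its transcript length.

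For *CREB1*, *CREM* and *ATF1*, the factors of the protein kinase A pathway, no zone difference was detectable with 2 libraries per zone. *CREB1* was at 5.27 and 9.52 CPM in SZCs and at 4.91 and 9.46 CPM in DZCs. Each zone held a low and a high library, and the zone means of 7.40 and 7.19 CPM were closer than the libraries of either zone. The 95% interval of its log2 fold change ran from -1.13 to 1.21, so a change of 2-fold is not excluded by these counts. *CREM*, whose products include both activators and the repressor ICER, was counted between 80 and 146 times per library. It was at 3.63 and 6.29 CPM in SZCs and at 5.41 and 6.19 CPM in DZCs, with the DZC values inside the range of the SZC values. Its log2 fold change was -0.22 (95% interval -1.32 to 0.87), and counts per gene do not separate its isoforms. *ATF1* was at 40.2 and 50.1 CPM in SZCs and at 49.8 and 50.7 CPM in DZCs, with a log2 fold change of -0.15 (95% interval -0.82 to 0.51). With libraries scaled by their totals alone the sign turned for both, to 0.066 for *CREM* and 0.15 for *ATF1*, in a fit where the median log2 fold change of all genes tested was 0.26 instead of -0.04. The summed level of the 3 genes was 49.1 and 65.9 CPM in SZCs and 60.1 and 66.3 CPM in DZCs, a log2 difference of -0.15 (p = 0.667, exact permutation, two-sided).

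Among the cofactors, *CREBBP*, which encodes CBP, was the member with most counts, 3524 and 3098 in SZCs, with 1368 and 2170 in DZCs. Its level was 160.1 and 133.5 CPM in SZCs and 85.1 and 97.3 CPM in DZCs. The zones did not overlap, and the log2 fold change was 0.69 (standard error 0.35, unadjusted p = 0.0516, edgeR FDR 0.558). *CRTC3* was at 14.8 and 13.4 CPM in SZCs and at 6.22 and 10.3 CPM in DZCs, or 0.77 as a log2 fold change (95% interval -0.15 to 1.69, edgeR FDR 0.748). DZC replicate 1, with 100 counts, was the lowest library. Without DZC replicate 2, which leaves that library as the only one of its zone, the FDR was 0.0144 for *CRTC3* and 0.0488 for *CREBBP* by the same edgeR test, at log2 fold changes of 1.20 and 0.81. *CRTC1* was at 11.9 and 9.0 CPM in SZCs and at 11.6 and 8.56 CPM in DZCs. *CRTC2* was at 39.4 and 29.1 CPM in SZCs and at 47.1 and 28.0 CPM in DZCs. For both, the libraries of each zone differed from each other more than the zone means did. Their log2 fold changes were 0.06 (95% interval -0.85 to 0.96) and -0.13 (95% interval -0.95 to 0.69), and that of *CRTC2* became 0.24 with scaling by library totals. The summed level of the 3 *CRTC* genes was 66.2 and 51.5 CPM in SZCs and 64.9 and 46.8 CPM in DZCs.

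The 9 members other than *CREB5* gave 0 calls in edgeR's exact test, with 0 at an unadjusted p under 0.05. Over all 12857 genes tested 2.93% were called and 1169 had an unadjusted p under 0.05, so that counts of 0 among 9 genes are near the background. DESeq2 and the quasi-likelihood test of edgeR also called 0 of the 9, each with 1 gene at an unadjusted p under 0.05. Their median log2 fold change was 0.06, against -0.04 over all genes tested.

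**Figure D3:**
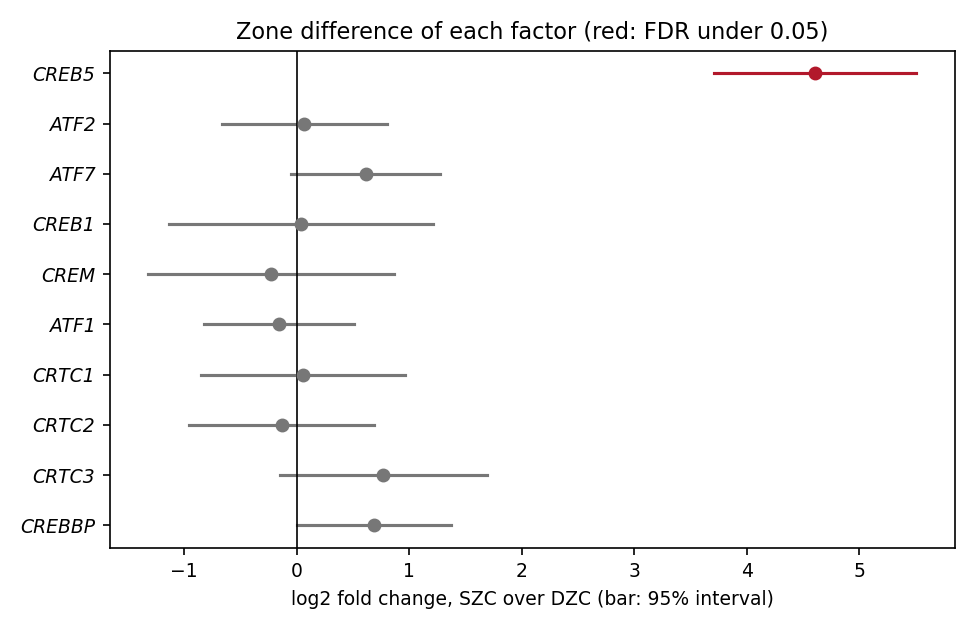
Log2 fold change of SZCs over DZCs for each factor, with its 95% interval from the negative binomial model as a bar and 0 as a vertical line; red marks an FDR under 0.05. *CREB5* stands at 4.61 with an interval of 3.71 to 5.51, and the other 9 points lie between -0.22 and 0.77.

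Between the 2 libraries of a zone, some members moved with the replicate number. *CREB1* was 1.81 times as high in replicate 2 as in replicate 1 of SZCs and 1.92 times in DZCs. *CREM*, *ATF1* and *ATF2* were also higher in both libraries numbered 2 than in both numbered 1. Thus 4 of 10 members had this order, against 21.9% of all genes tested. *CRTC1* and *CRTC2* had the opposite order, 2 of 10 against 20.7% of all genes, with replicate 2 at 0.756 and 0.737 of replicate 1 in SZCs and at 0.740 and 0.595 in DZCs. The other 4 members followed neither order, being lower in replicate 2 of SZCs and higher in replicate 2 of DZCs, at 0.690 and 1.59 times replicate 1 for *CREB5*, 0.995 and 1.24 for *ATF7*, 0.905 and 1.65 for *CRTC3* and 0.834 and 1.14 for *CREBBP*. No condition in the labels separates the replicate numbers, and this pattern was noticed in the data and not tested.

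**Figure D4:**
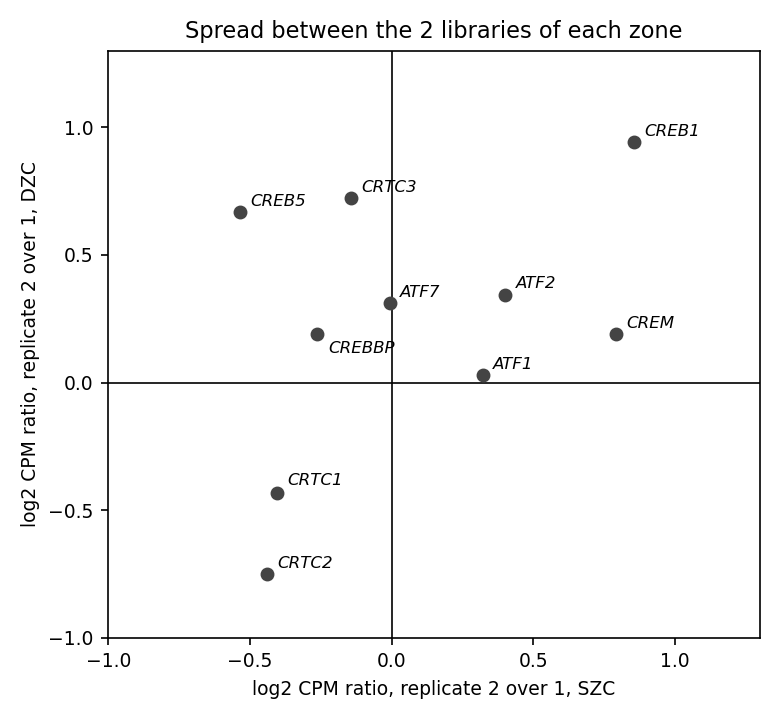
Log2 ratio of the CPM of replicate 2 to that of replicate 1, in SZCs on the horizontal and in DZCs on the vertical axis, with 1 point per gene. *CREB1* lies at the upper right, at ratios of 1.81 and 1.92, *CRTC1* and *CRTC2* at the lower left, and *CREB5*, *ATF7*, *CRTC3* and *CREBBP* at the upper left, where the replicates went opposite ways in the 2 zones.

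The rest of the pathway was described through 5 gene lists. Other CREB and ATF factors with a bZIP domain gave 0 calls among 12 tested of 15, by edgeR's exact and quasi-likelihood tests and by DESeq2, with 1 gene at an unadjusted p under 0.05 in the exact test. In this list and the next 2, these counts stand against 2.93% of all genes called and 1169 of 12857 at that unadjusted p. Their log2 fold changes ran from -0.85 to 0.60, with a median of 0.15. *ATF3*, a stress-induced repressor, was lowest in this list, at 35.2 and 40.9 CPM in SZCs and 88.3 and 48.9 CPM in DZCs (edgeR FDR 0.51). *CREB3L2*, a membrane-bound factor of the secretory pathway in cartilage, was highest, at 183.0 and 175.2 CPM in SZCs and 98.6 and 137.8 CPM in DZCs (edgeR FDR 0.749). *CREB3L3* had 0 counts in all libraries, and *BATF* and *BATF3* had at most 3 counts in any. Without DZC replicate 1 a single gene of this list was called (*ATF5*), and without DZC replicate 2 there were 3 (*ATF3*, *CREB3L1* and *CREB3L2*), in fits that called 6.68% and 21.5% of all genes.

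The AP-1 genes, whose products can pair with ATF2-type factors, gave 0 calls among 6 tested of 7 in all 3 tools, with 2 at an unadjusted p under 0.05 in edgeR's exact test. Those were *JUN* and *FOSL1*. *JUN* was at 32.8 and 36.9 CPM in SZCs and at 62.8 and 61.1 CPM in DZCs. Its DZC values were above its SZC values with little spread in either zone, and the log2 fold change was -0.83 (SE 0.33, edgeR FDR 0.235). *JUN* was called without DZC replicate 1 and without DZC replicate 2, fits that called 6.68% and 21.5% of all genes. *FOSL1* was at 4.41 and 5.17 CPM in SZCs, at 4.60 CPM in DZC replicate 1 and at 29.7 CPM in DZC replicate 2, so its log2 fold change of -1.84, the lowest of the list, rested on a single library. *FOS* had the highest of the list, 0.83, and it was at 162.1 CPM in SZC replicate 1 and at 44.2 to 58.8 CPM in the other 3 libraries. *FOSL1* was called without DZC replicate 1, and *FOSL2* without DZC replicate 2.

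The kinases that phosphorylate these factors, with the kinases above them, gave 0 calls among 19 tested of 20 in the same 3 tools, and 0 at an unadjusted p under 0.05 in edgeR's exact test. Their median log2 fold change was 0.02. *MAPK14*, which encodes p38 alpha, was at 31.2 and 32.2 CPM in SZCs and 31.0 and 27.3 CPM in DZCs. *MAPK12*, which encodes p38 gamma, had the lowest log2 fold change, -1.29, at 3.45 and 3.40 CPM in SZCs and 12.3 and 4.53 CPM in DZCs. *RPS6KA3* had the highest, 0.68, and it was one of 3 genes called without DZC replicate 2, with *RPS6KA1* and *MAPK12*, where 21.5% of all genes were called. These are RNA levels, which do not report on phosphorylation.

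Of 9 tested genes among 10 coactivators and regulators of CRTC proteins, 1 was called, *PPP3CA*, against 2.93% of all genes tested. It encodes the alpha catalytic subunit of calcineurin, and was at 146.5 and 110.3 CPM in SZCs and 44.5 and 49.8 CPM in DZCs. Its log2 fold change was 1.45 (SE 0.36, edgeR FDR 0.00486), with both SZC libraries more than 2-fold above both DZC libraries. The beta catalytic subunit *PPP3CB* was at 20.8 and 21.0 CPM in SZCs and 24.9 and 24.2 CPM in DZCs, and the regulatory subunit *PPP3R1*, lowest in the list with a log2 fold change of -0.25, also lay slightly lower in both SZC libraries. *EP300*, which encodes the relative of CBP, was at 105.1 and 94.7 CPM in SZCs and at 49.8 and 77.3 CPM in DZCs, or 0.65 as a log2 fold change (edgeR FDR 0.708), near that of *CREBBP*. *PPP3CA* had an FDR of 0.224 in the quasi-likelihood test of edgeR, and by edgeR's exact test 1 without SZC replicate 1 and 0.245 without SZC replicate 2, where its log2 fold change was 1.23 and 1.64. Without DZC replicate 2, *EP300* and *SIK2* were called as well, in the fit that called 21.5% of all genes.

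The last list held 24 genes known to respond to cAMP and CREB factors. Of these 22 were found and 17 tested, and 5 were called higher in SZCs and 1 higher in DZCs, against 2.23% and 0.700% of all genes. The study had already listed *NR4A1*, *NR4A2* and *NR4A3* as higher in SZCs in these same libraries. Part of this count, and of the median below, was thus known when the list was chosen. The median log2 fold change of the 17 was 0.58, against -0.04 over all genes tested. The 3 orphan nuclear receptors of the list, which are early response genes, rose together. *NR4A1* was at 75.2 and 60.0 CPM in SZCs and 25.7 and 22.2 CPM in DZCs, which is 1.5 ± 0.35 (SE) as a log2 fold change (edgeR FDR 0.00218). *NR4A2* was at 60.4 and 60.4 CPM in SZCs and 9.14 and 21.0 CPM in DZCs. The log2 fold change of *NR4A2* was 2.00 (SE 0.48, edgeR FDR 0.0041). *NR4A3* was at 8.59 and 9.69 CPM in SZCs and 1.43 and 1.66 CPM in DZCs, the clearest separation of the 3, with a log2 fold change of 2.56 (SE 0.53, edgeR FDR 0.000475). *DUSP1*, a phosphatase that switches off p38 and JUN N-terminal kinases, was at 83.4 and 87.1 CPM in SZCs and 20.6 and 37.6 CPM in DZCs, or 1.55 as a log2 fold change (edgeR FDR 0.0133).

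*RGS2*, a regulator of G protein signalling, was also called higher in SZCs (edgeR FDR 0.0229), but on few reads. It had 40 counts in SZCs together and 1 in DZCs, a ratio of 34 after scaling with an exact 95% interval from 5.75 to 1370 for counting error. *RGS2* passed the filter on low counts only through its SZC libraries, so its place among the genes higher in SZCs was partly set by that filter. *SST*, which encodes the hormone somatostatin, was the gene called higher in DZCs, at 0.545 and 1.25 CPM in SZCs and 6.22 and 4.21 CPM in DZCs (log2 fold change -2.53, edgeR FDR 0.0246). *EGR1* was not called, with a log2 fold change of 2.06, and was at 519.3 CPM in SZC replicate 1, against 62.6, 112.7 and 26.6 CPM in SZC replicate 2 and DZC replicates 1 and 2. The 6 calls were lost when either SZC library was left out, in fits that called 0.529% and 1.26% of all genes. Without SZC replicate 1 the exact test of edgeR called 0 of the 17, and without SZC replicate 2 it called 1, *EGR1*. The log2 fold changes in these 2 fits were 2.00 and 2.00 for *NR4A2*, 2.64 and 2.47 for *NR4A3*, 1.58 and 1.52 for *DUSP1*, 1.32 and 1.65 for *NR4A1* and -2.06 and -3.24 for *SST*, each in the direction of the full fit. *RGS2* was also lost without DZC replicate 2 (edgeR FDR 0.0852). The quasi-likelihood test of edgeR called 0 of the 17, with 6 at an unadjusted p under 0.05, and DESeq2 called 5, without *RGS2*. With libraries scaled by their totals alone, *DUSP1* (edgeR FDR 0.0789) and *SST* (edgeR FDR 0.151) were not called.

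**Figure D5:**
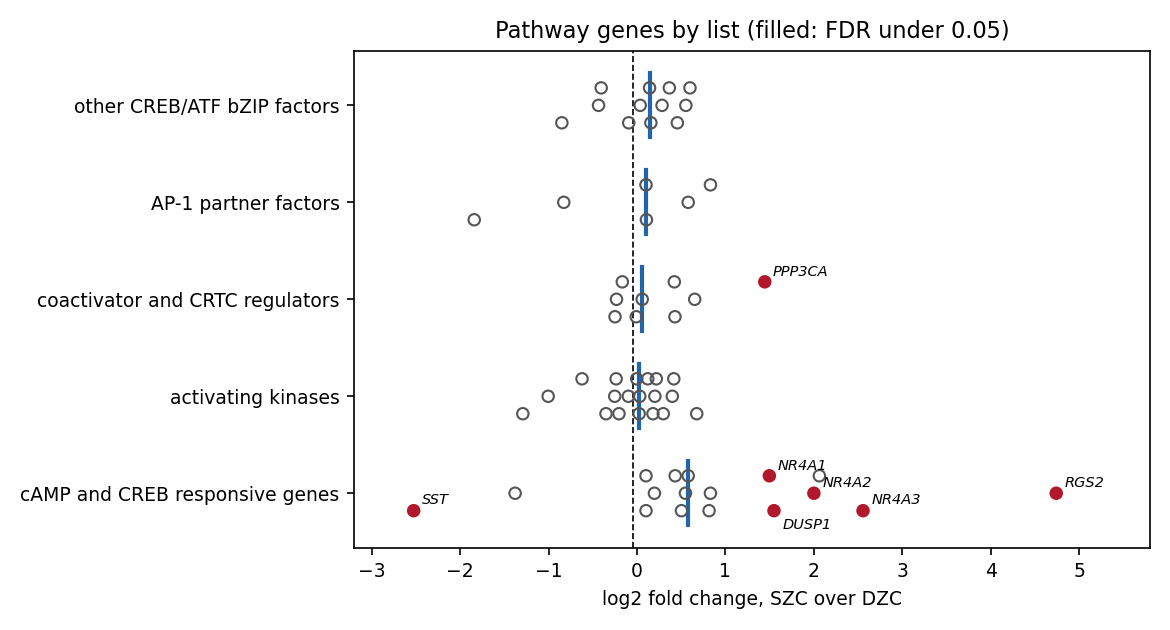
Log2 fold change of SZCs over DZCs for the tested genes of 5 pathway lists, with 1 point per gene; filled red points had an FDR under 0.05 in edgeR's exact test, blue bars are list medians and the dashed line is the median of all genes tested, -0.04. The called genes are *PPP3CA* among the CRTC regulators and 6 of the cAMP and CREB responsive genes, of which *SST* lies at -2.53 and *RGS2*, fitted on 1 count in DZCs, at 4.74.

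The genes whose pattern over the 4 libraries was nearest to that of *CREB5* were found by the root mean square distance of log2(CPM + 1), which takes level and shape together and is not corrected for transcript length. They were *FGL2* (fibrinogen-like 2, distance 0.332), *NPNT* (nephronectin, a matrix protein, 0.352), *CYTL1* (a cytokine-like secreted protein of cartilage, 0.442), *GAS1* (a membrane protein that binds hedgehog ligands, 0.449) and *MME* (the membrane peptidase neprilysin, 0.521). *FGL2* was at 59.1 and 41.5 CPM in SZCs and at 1.74 and 2.82 CPM in DZCs. The other 4 had 22.7 to 83.5 CPM in SZCs and 0.373 to 4.39 CPM in DZCs. *FGL2*, *NPNT*, *CYTL1* and *GAS1* had the same order of libraries as *CREB5*, and *MME* did not. Within a distance of 1, 37 named genes were found. The 4 libraries share their preparation and 2 zones, so the likeness is a description.

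By gene order in RefSeq (assembly ARS-UCD2.0, used for order and names only, since the reads were aligned to another build), *CREB5* lies between *TRIL* and *JAZF1*. *JAZF1* had 484 and 724 counts in SZCs, with 303 and 468 in DZCs, and a log2 fold change of 0.42 (95% interval -0.33 to 1.17, edgeR FDR 0.94). *CREBBP* lies between *TRAP1* and *ADCY9*, an adenylyl cyclase. The log2 fold change was -0.66 for *TRAP1* (edgeR FDR 0.661) and 0.95 for *ADCY9* (edgeR FDR 0.296). In that assembly *CREB5* overlaps a pseudogene (LOC112446468) and a long noncoding RNA (LOC132345110), *ATF7* a long noncoding RNA (LOC132345254), *CREB1* the gene *METTL21A* and *CRTC2* a protein-coding gene (LOC132344833). *ATF1*, *CRTC1* and *CRTC3* overlap small RNA genes, and since strand was not used in counting, reads from any shared stretch cannot be told apart.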

How the data were processed

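The authors prepared total RNA with a kit for very small inputs, sequenced single-end reads of 75 bases, aligned them with STAR 2.5.2b to the Ensembl UMD3.1 cow genome and deposited unnormalized counts per gene for an unstranded library. They also deposited log2 fold changes and FDR values of their own comparison, which were not used; that table only filled blank gene names. The ATAC-Seq samples were not analysed here. Columns were matched to samples by name.

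Counts were tested with edgeR 4.0.16 in R 4.3.3: default filter and dispersion estimate, TMM scaling, exact test, and Benjamini–Hochberg adjustment over all genes tested at an FDR of 0.05. Scaling, test, adjustment and threshold are those in the study's methods. The methods name no filter or dispersion estimator, so the calls here need not match the study's own. Standard errors and 95% intervals follow from the negative binomial model with gene-wise dispersion and a normal approximation. TMM factors were 1.11, 1.14, 0.735 and 1.08 for SZC replicates 1 and 2 and DZC replicates 1 and 2, in which *COL2A1* took 7.18%, 6.31%, 24.5% and 12.9% of the counts. Ratios had 0.5 added to each count. Replicates differed by more than sampling noise (chi-square per degree of freedom 50.5 in SZCs and 245 in DZCs). Alternatives were the quasi-likelihood test with and without the replicate number as a block, DESeq2 1.42.0, other filters and scalings, and each library left out. The scripts were tested on simulated data. Named genes are the 10 members, called genes and extremes of 5 pathway lists, the 5 genes nearest to *CREB5* and *PRG4*; *MAPK14*, *JUN*, *EP300*, *EGR1*, *PPP3CB*, untested or single-setting genes of the lists and the neighbours were named after their values were seen. Members and lists were chosen with earlier results of these data known. *JUND*, *SIK1* and *NFIL3* were not matched by name. Exon lengths and sequences of the authors' build were not used here, so levels were not compared between genes per length; the search for genes near *CREB5* used CPM without that correction.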

Additional observations from a re-analysis of the deposited data

How the results depend on the processing

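The quasi-likelihood test of edgeR called 0 genes (0 higher in SZCs, 0 higher in DZCs; 1126 at an unadjusted p under 0.05), so the calls of *CREB5* (log2 fold change 4.61, quasi-likelihood FDR 0.0775) and of the CRTC regulators and cAMP and CREB responsive genes (0 and 0) were lost; the cause was not tested. Scaling by library totals alone gave 288 calls higher in SZCs and 44 higher in DZCs, against 287 and 90 with TMM, moved the median of all genes from -0.04 to 0.26, and turned the sign of *CREM* (0.066), *ATF1* (0.15) and *CRTC2* (0.24). *CREB5* was called in every alternative other than the quasi-likelihood test without a block.

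With each library left out, between 68 and 2768 genes were called, 62 to 1656 higher in SZCs and 6 to 1112 higher in DZCs, with the fewest without SZC replicate 1 and the most without DZC replicate 2. Log2 fold changes ran from -0.15 to 0.28 for *ATF2*, 0.47 to 0.80 for *ATF7*, -0.45 to 0.61 for *CREB1*, -0.67 to 0.12 for *CREM*, -0.32 to -0.0036 for *ATF1*, -0.16 to 0.29 for *CRTC1*, -0.44 to 0.29 for *CRTC2*, 0.46 to 1.20 for *CRTC3* and 0.55 to 0.81 for *CREBBP*. Calls ranged from 0 to 3 for other bZIP factors, 0 to 2 for AP-1, 0 to 3 for CRTC regulators, 0 to 3 for kinases and 0 to 9 for the responsive genes.

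The labels do not say that a replicate number marks a shared joint, and after subtracting zone means, libraries of equal number correlated at 0.42 across genes. A quasi-likelihood fit that took this number as block gave 347 calls, 277 of them among the 377 of the exact test, where *CREB5* had a log2 fold change of 4.59 (quasi-likelihood FDR 0.00164). Of the responsive genes 5 were called in that fit, *NR4A1*, *NR4A2*, *NR4A3*, *DUSP1* and *EGR1*, while *SST* (FDR 0.0643) and *RGS2* (FDR 0.115) were not. The 95% intervals of *CREB1*, *CREM*, *ATF7*, *CRTC3* and *CREBBP* include a 2-fold difference.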
